A study of Rattus norvegicus with 241 samples.

Results

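The samples described here are CD45+ leukocytes sorted from mammary tumors that the carcinogen N-nitroso-N-methylurea (NMU) had induced in female virgin Sprague Dawley rats, an outbred strain. Members were chosen by label as the bulk libraries of NMU tumors in the CD45+ sort, 3 from TGFBRi-treated and 3 from vehicle-treated rats, which makes 6 samples of 241 in the series and of 202 bulk samples. From 21 days of age the rats received TGFBRi (LY2157299, galunisertib, an inhibitor of the kinase of TGFβ receptor 1) at 75 mg/kg or its carboxymethylcellulose vehicle, 2 times a day for 10 days. A single injection of NMU (50 mg/kg) followed the last dose, and tumors were collected 87 days later, so no rat was on drug when its tumor was taken. All 6 rats had received the carcinogen. The TGFBRi samples come only from treated rats in which a tumor nevertheless grew. Each library is 1 rat and is named by the rat, C2N, C2R and C5R for vehicle and D2N, D3R and D4R for TGFBRi, and values are given in this order throughout. The question put to these samples was whether leukocytes of tumors that arose after TGFBRi differ from those of control tumors.

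TGFβ is a cytokine family that acts through a type II and a type I receptor kinase, the latter of which phosphorylates SMAD2 and SMAD3, and the SMAD complexes then switch on target genes together with feedback inhibitors such as SMAD7, BAMBI and PMEPA1. In leukocytes the pathway is known to restrain effector T cell proliferation, to favor regulatory T cells and tissue residence, and to act on macrophages and on mucosal mast cells, whose proteases it can induce. Leukocytes of a mammary tumor are a mixture of macrophages, dendritic cells, T, NK and B lymphocytes and mast cells. In bulk samples of such a mixture, fewer cells of a type and less RNA per cell cannot be told apart.

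The libraries held 8572615 to 15654389 reads on genes, and 12641 genes had values that summed to at least 10. The pan-leukocyte list was present in every library, with a summed value of 119555, 145398 and 141251 in the vehicle tumors and 120973, 177514 and 143876 in the TGFBRi tumors, and PTPRC, which encodes CD45 itself, had values of 6843, 6155 and 1652 in the vehicle tumors and 6910.3, 9045 and 12138 in the TGFBRi tumors, the lowest treated tumor D2N being just above vehicle C2N. Markers of other cell types were low but not absent. The 70 measured genes of the epithelial, milk, fibroblast, endothelial, pericyte, adipocyte and erythroid lists made up 0.212%, 0.182% and 0.303% of all values in the vehicle libraries and 0.471%, 0.0966% and 0.244% in the TGFBRi libraries. Vehicle C5R stood apart in detection, with 568 genes at 0 against 1421 to 2470 in the other libraries, and had the lowest PTPRC. Across genes, Pearson correlations of log2 values were 0.802 to 0.835 between vehicle tumors, 0.779 to 0.836 between TGFBRi tumors and 0.784 to 0.837 between tumors of different groups, as a description over genes, which are not independent replicates. The 3 ranges overlapped, so pairs of one treatment were not set apart from mixed pairs.

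No gene passed the test for a treatment effect. By limma on log2(value + 1), 0 of 12641 genes (0%) had an adjusted p of 0.05 or less, the smallest being 0.445, while 841 genes (6.65%) had an unadjusted p under 0.05, of which 340 were higher in TGFBRi tumors (2.69%) and 501 lower (3.96%). The edgeR quasi-likelihood test on recovered reads also called 0 genes (0%), with 760 (6.01%) under an unadjusted 0.05. DESeq2 on the same reads called 68 of the 9744 genes for which it gave an adjusted p (0.698%), 22 higher (0.226%) and 46 lower (0.472%). Among all genes tested, 745 had separate groups in the higher direction (5.89%) and 791 in the lower direction (6.26%). Of the 68 genes that DESeq2 called, 67 had group values that did not overlap. This rests on the same values as the calls and is no separate support for them. The called gene with overlapping groups was MARCO, a macrophage scavenger receptor listed at 94.9 in C2N and at 0 in the other 5 tumors, named after its values were seen. The groups of 3 leave wide errors, the median SE of a log2 fold change being 0.62 for genes with a mean value of at least 100. Without TGFBRi D2N, 1 gene passed the limma test (FAM129B, log2 fold change -4.15, adjusted p = 0.0279, named after its values were seen), whose values with all tumors were 3080.5, 1151 and 1089 in the vehicle tumors and 1675, 94.1 and 81 in the TGFBRi tumors, and no gene passed when any other library was left out.

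**Figure D1:**
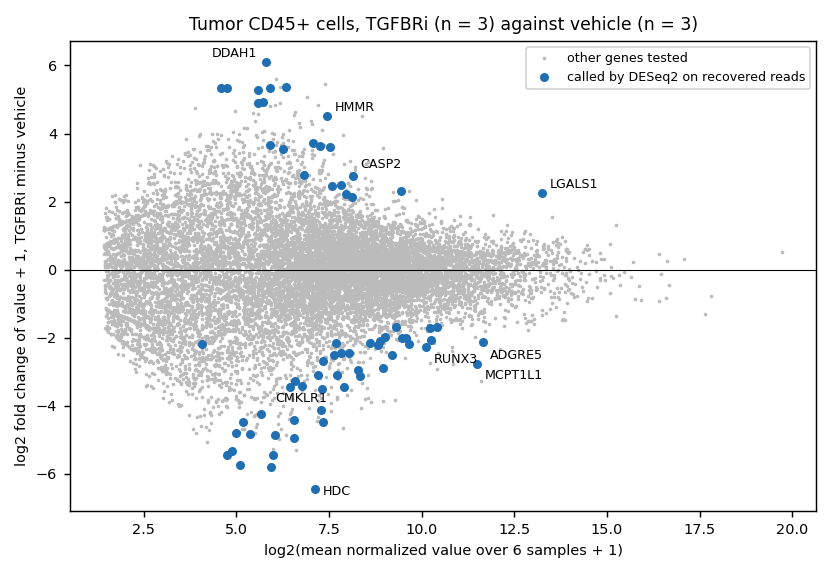
Each point is 1 of the 12641 genes tested, with its mean level over the 6 samples (log2 of the mean normalized value + 1) on the x axis and the limma log2 fold change, TGFBRi minus vehicle, on the y axis. Blue points are the 68 genes called by DESeq2 on recovered reads, 22 above and 46 below the line at 0; limma and edgeR called none, and the cloud widens toward low levels.

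The genes that only DESeq2 called are described next. They were named by a rule that also required separate groups, so their separation is not a result. Values are the normalized values of the 6 tumors, and a pair such as 2.31 ± 0.59 in parentheses is the limma log2 fold change, TGFBRi minus vehicle, with its SE; no limma adjusted p of these genes was under 0.445. LGALS1, which encodes galectin-1, a secreted lectin that binds glycans on T cells, had the highest normalized values among those that were higher. These values were 4259, 1972 and 3441 in the vehicle tumors and 27677, 11708 and 9496 in the TGFBRi tumors, so the lowest treated tumor lay above the highest vehicle tumor (log2 fold change 2.24 ± 0.43 SE, limma adjusted p = 0.445, DESeq2 adjusted p = 0.00714). GIMAP9, a small GTPase of the lymphocyte GIMAP family, had values of 280.4, 235 and 133 in the vehicle tumors and 454, 1777 and 1322 in the TGFBRi tumors (2.31 ± 0.59). CASP2, a caspase linked to the response to DNA damage and to failed division, had values of 120, 51.4 and 57 in the vehicle tumors and 486, 592 and 399 in the TGFBRi tumors (2.77 ± 0.69). Groups were separate for both, as the rule required, by a wider margin for CASP2 than for GIMAP9, whose treated values were lowest in D2N.

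HMMR, a receptor for hyaluronan and a spindle protein of dividing cells, stood at 5.6, 43.6 and 7 in vehicle tumors and 166, 441 and 381 in TGFBRi tumors (4.52 ± 1.15, DESeq2 adjusted p = 0.00405). PIBF1, a progesterone-induced centrosomal protein, measured 57.2, 81.1 and 62.8 in the vehicle tumors and 292, 469.8 and 401 in the TGFBRi tumors (DESeq2 adjusted p = 0.00936). Vehicle tumors differed among themselves more for HMMR, where C2R was the highest, than for PIBF1. Other higher genes of this set included PTPN4, PGM2, NLRP1A, PHF20L1, ETFDH, DIEXF, PTPDC1, DDAH1 and RGD1308147, with log2 fold changes from 2.13 to 6.10. For DIEXF, PTPDC1, DDAH1 and RGD1308147 every vehicle value was under 10, so the size of their fold change rests on the pseudocount.

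The gene with the smallest limma p was ADGRE5, which encodes the leukocyte adhesion receptor CD97. It was lower, with values of 3932, 4319 and 7412 in the vehicle tumors and 1483, 1206 and 833 in the TGFBRi tumors (log2 fold change -2.13 ± 0.41 SE, limma adjusted p = 0.445, DESeq2 adjusted p = 0.00358). RUNX3, a transcription factor of cytotoxic T cells and dendritic cells that acts together with SMADs, measured 1853, 1351 and 2251 in the vehicle tumors and 476, 545 and 197 in the TGFBRi tumors (-2.26 ± 0.50). NFIL3, a basic leucine zipper factor needed for NK and innate lymphoid cells, measured 1925, 1828 and 1710.4 in the vehicle tumors and 467, 606 and 614 in the TGFBRi tumors (-1.70 ± 0.42). In all 3 genes the highest treated tumor lay below the lowest vehicle tumor, as the naming rule required. The vehicle tumors were closest to each other for NFIL3.

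TOB2, an antiproliferative adaptor of the BTG family, had values of 1420.2, 2121 and 2362 in the vehicle tumors and 696, 431 and 322 in the TGFBRi tumors (-2.06 ± 0.46). SESN2, a stress-induced regulator of mTORC1, had values of 965, 653 and 1335 in the vehicle tumors and 351, 86.8 and 148 in the TGFBRi tumors (-2.51 ± 0.60). TLE3, a corepressor, had values of 1535, 957 and 1119 in the vehicle tumors and 462, 167 and 317 in the TGFBRi tumors (-2.02 ± 0.52). All 3 were lowest in D3R or D4R. CMKLR1, the chemerin receptor of macrophages, plasmacytoid dendritic cells and NK cells, measured 862, 196 and 269 in the vehicle tumors and 26.3, 30.2 and 39.9 in the TGFBRi tumors (-3.46 ± 0.89). SDC3, a heparan sulfate proteoglycan, measured 1695, 358 and 602 in the vehicle tumors and 45.8, 152 and 128 in the TGFBRi tumors (-2.88 ± 0.71). For both of these genes vehicle C2N was far above the other vehicle tumors. That C2R and C5R also lay above every treated tumor was required by the naming rule. GNA12, EHD4, B3GNT7, TXNDC11, LPCAT1 and CDC42EP4 were the other genes named by the rule, with log2 fold changes from -4.12 to -1.68 and DESeq2 adjusted p from 0.000774 to 0.0491.

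Genes of the cell cycle leaned toward higher values after TGFBRi. Of the 45 G2/M genes tested, 37 had a positive and 8 a negative log2 fold change, with a median of 0.78, where 48.9% of all genes were positive and their median was -0.03. Group values did not overlap for 11 of the 45 (24.4%), all higher, beside 5.89% of all genes, and 10 (22.2%) had an unadjusted p under 0.05 in the higher direction, beside 2.69%. Of the 37 S phase genes, 29 were positive with a median of 0.69, and 7 (18.9%) had separate groups, again all higher. The S phase sums overlapped, at 13524, 15877 and 12532 in the vehicle tumors and 16845, 20413 and 15659 in the TGFBRi tumors. The G2/M sums did not, at 14328, 16781 and 14886 in the vehicle tumors and 17677, 23915 and 21048 in the TGFBRi tumors. Separate sums were not particular to G2/M. Plasma cell sums were separate and lower, at 6839 to 7949.5 in vehicle and 2616 to 5057 in TGFBRi tumors. The TGFβ ligand sums (1192 to 2206 and 586 to 787) and receptor sums (1099.7 to 1634 and 630 to 1020) were also separate and lower. No member of the S phase or G2/M list passed the limma test. Of the 45 G2/M genes 1, HMMR, passed DESeq2, which called 0.226% of its genes higher, and no S phase gene did. The medians stayed positive without each library in turn, from 0.77 to 1.23 for G2/M and from 0.61 to 0.90 for S phase, and were 1.07 and 0.77 with C2N and D2N both left out, the pair of tumors highest in chemokine transcripts. The highest of the G2/M values was that without D3R.

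SMC4, a subunit of condensin, which compacts chromosomes for mitosis, had values of 1166, 828 and 151 in the vehicle tumors and 1529, 2447 and 2897 in the TGFBRi tumors (2.07 ± 0.66, limma adjusted p = 0.641). TMPO, which encodes a nuclear lamina protein, had values of 257, 171 and 216 in the vehicle tumors and 602, 655 and 599 in the TGFBRi tumors (1.54 ± 0.54). DLGAP5, a spindle protein, had values of 144, 63.9 and 159 in the vehicle tumors and 328, 581 and 304 in the TGFBRi tumors (1.76 ± 0.68). The treated tumors were tightly grouped for TMPO and led by D3R for DLGAP5, while for SMC4 vehicle C5R was far below the other vehicle tumors. TOP2A, the type II topoisomerase of dividing cells, measured 208, 123 and 78 in the vehicle tumors and 276, 550.2 and 397 in the TGFBRi tumors (1.63 ± 0.66), and MKI67, which encodes the proliferation marker Ki-67, measured 309.7, 77.2 and 76.8 in the vehicle tumors and 356, 354 and 511 in the TGFBRi tumors (1.70 ± 0.70). Both were named after their values were seen, and their closest values across groups were 207.9 and 275.7 for TOP2A and 309.7 and 353.7 for MKI67.

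Among S phase genes, POLA1, the catalytic subunit of DNA polymerase alpha, measured 40.5, 178 and 24.4 in the vehicle tumors and 548, 644 and 190.4 in the TGFBRi tumors (2.83 ± 0.86). USP1, a deubiquitinase of the Fanconi pathway and of PCNA, measured 350.2, 563 and 138 in the vehicle tumors and 947, 969.8 and 851 in the TGFBRi tumors (1.61 ± 0.56). RPA2, a subunit of the single-strand DNA binding complex, measured 236, 209 and 368 in the vehicle tumors and 678, 519 and 693 in the TGFBRi tumors (1.25 ± 0.53). GMNN, the inhibitor of origin licensing geminin, measured 557, 574 and 369 in the vehicle tumors and 1134, 841 and 757 in the TGFBRi tumors (0.87 ± 0.47), and all 4 genes were separate between the groups. Several members of the S phase and G2/M lists with high normalized values did not show this pattern. PCNA, the replication clamp, measured 3153, 5147 and 3142 in the vehicle tumors and 3306, 3744 and 2801 in the TGFBRi tumors (-0.18 ± 0.38), and TUBB4B, a β-tubulin of the G2/M list, measured 1576, 4061 and 4928 in the vehicle tumors and 2715, 1848 and 924 in the TGFBRi tumors (-0.92 ± 0.49). The 95% intervals of SLBP and NASP (S phase) and of CKS2 and ANP32E (G2/M) all spanned 0, with log2 fold changes of 0.04, 0.03, 0.12 and 0.02.

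**Figure D2:**
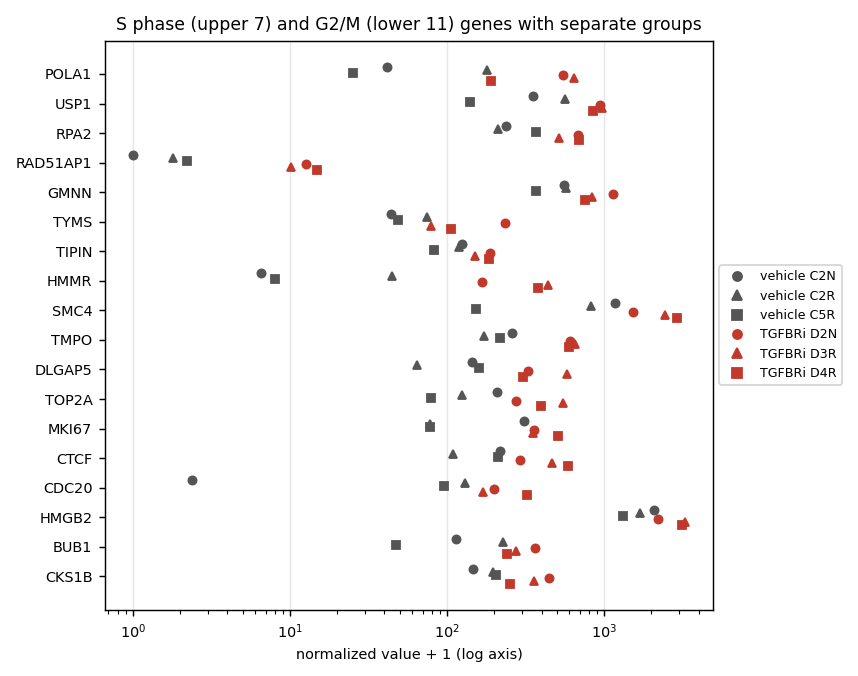
Normalized values + 1 (log axis) of the 7 S phase and 11 G2/M genes whose groups did not overlap, each point 1 tumor, grey for vehicle and red for TGFBRi. Red points lie right of the grey ones in every row because these genes were picked for that; the gap is wide for HMMR and RAD51AP1 and narrow for HMGB2 and MKI67.

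G2/M genes are known to share promoter elements bound by the DREAM and MMB complexes, the cell cycle gene homology region TTTGAA and the CCAAT box bound by NF-Y. Promoters from RefSeq (GRCr8, from 250 bases before to 50 bases after the start) matched 42 G2/M genes, and 28 of these (66.7%) held TTTGAA on either strand, beside 18.3% of all 33469 promoters of the same length. CCAAT was in 31 (73.8%), beside 37.5%. For the 28 S phase promoters the counts were 5 (17.9%) and 17 (60.7%). The 11 G2/M genes with separate groups had TTTGAA in 7 (63.6%) and CCAAT in 9 (81.8%), close to the whole list, and a match is a description of these letters and not a bound site. The promoters of 4 of these 11 genes are shown so that the shared letters can be seen, with TTTGAA or CCAAT, on either strand, in capitals.
HMMR (chr10:25665166-25665465, minus strand): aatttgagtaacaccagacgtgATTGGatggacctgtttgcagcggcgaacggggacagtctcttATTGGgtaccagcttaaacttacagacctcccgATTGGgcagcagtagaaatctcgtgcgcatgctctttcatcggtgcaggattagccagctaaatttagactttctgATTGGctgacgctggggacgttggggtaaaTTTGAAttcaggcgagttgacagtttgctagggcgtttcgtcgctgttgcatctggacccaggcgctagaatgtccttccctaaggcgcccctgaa
SMC4 (chr2:155550012-155550311, plus strand): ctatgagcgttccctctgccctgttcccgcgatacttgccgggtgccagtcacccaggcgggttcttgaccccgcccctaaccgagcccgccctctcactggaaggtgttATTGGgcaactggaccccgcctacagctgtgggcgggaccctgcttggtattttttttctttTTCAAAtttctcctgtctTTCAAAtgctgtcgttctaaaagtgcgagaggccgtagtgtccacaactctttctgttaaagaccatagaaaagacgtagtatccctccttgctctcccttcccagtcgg
TOP2A (chr10:84473044-84473343, minus strand): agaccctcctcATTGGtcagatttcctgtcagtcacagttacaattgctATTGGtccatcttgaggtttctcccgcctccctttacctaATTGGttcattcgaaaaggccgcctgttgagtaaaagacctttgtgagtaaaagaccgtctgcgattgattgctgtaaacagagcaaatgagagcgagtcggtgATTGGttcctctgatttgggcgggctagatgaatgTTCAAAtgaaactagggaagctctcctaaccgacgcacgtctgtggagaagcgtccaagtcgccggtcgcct
MKI67 (chr1:199952544-199952843, minus strand): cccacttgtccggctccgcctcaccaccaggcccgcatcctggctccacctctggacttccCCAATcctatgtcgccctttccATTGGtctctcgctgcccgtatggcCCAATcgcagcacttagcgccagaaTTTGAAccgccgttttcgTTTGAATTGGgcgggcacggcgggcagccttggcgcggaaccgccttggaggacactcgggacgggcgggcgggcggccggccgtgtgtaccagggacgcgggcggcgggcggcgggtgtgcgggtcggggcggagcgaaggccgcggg

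The TGFβ pathway itself was examined by role. Of the 9 ligand genes tested, TGFB1 had the highest normalized values, at 1724, 991 and 1947 in the vehicle tumors and 599, 530.1 and 289.8 in the TGFBRi tumors (log2 fold change -1.72 ± 0.48 SE, limma adjusted p = 0.615), all treated tumors lying below all vehicle tumors. It was called by no test, its DESeq2 adjusted p being 0.0883. TGFB2, TGFB3, INHBA, INHBB, BMP2, BMP4, BMP7 and GDF15 were at 0 to 182 in single libraries with overlapping groups, and the list median of 0.37 had the opposite sign to TGFB1 and turned negative without D4R.

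Among the 11 receptor genes no member was separate between groups, and 2 (18.2%), ENG and ACVRL1, had an unadjusted p under 0.05 in the lower direction, beside 3.96% of all genes. TGFBR2, the type II receptor, measured 237, 141 and 359.5 in the vehicle tumors and 273, 228 and 219.6 in the TGFBRi tumors (0.06 ± 0.64, 95% interval -1.28 to 1.40). TGFBR1, the kinase that the drug blocks, measured 9.8, 214 and 7 in the vehicle tumors and 189, 94.1 and 175 in the TGFBRi tumors (2.47 ± 1.29), with C2N and C5R under 10. The endoglin gene ENG, a coreceptor of endothelium and macrophages, measured 589, 162 and 348 in the vehicle tumors and 177, 45.7 and 79.1 in the TGFBRi tumors (-1.88 ± 0.78), and its partner ACVRL1 measured 624, 401 and 343 in the vehicle tumors and 164, 394 and 20.9 in the TGFBRi tumors (-1.97 ± 0.88). ENG and ACVRL1 each overlapped in 1 library, D2N for ENG and D3R for ACVRL1. TGFBR3, ACVR1, ACVR1B, ACVR2A, ACVR2B, BMPR1A and BMPR2 were under 100 in every library.

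Of the 13 genes that store or activate latent TGFβ, FURIN, the protease that cleaves the TGFβ precursor, measured 1437, 1775 and 2596 in the vehicle tumors and 1012, 939.6 and 281 in the TGFBRi tumors (-1.54 ± 0.51, limma adjusted p = 0.641) and was the 1 member (7.69%, beside 6.26% of all genes) with separate groups. ITGB8, the β8 integrin chain that activates TGFβ on T cells and dendritic cells, measured 466, 639 and 362 in the vehicle tumors and 512, 559 and 784 in the TGFBRi tumors (0.35 ± 0.50). LRRC32, which encodes GARP, the carrier of latent TGFβ on regulatory T cells, measured 279, 163 and 470.1 in the vehicle tumors and 299, 248 and 296 in the TGFBRi tumors (0.01 ± 0.61), and NRROS, its counterpart on myeloid cells, measured 1073, 240 and 841 in the vehicle tumors and 818, 929.6 and 311 in the TGFBRi tumors (0.04 ± 0.61). The groups overlapped for all 3. THBS1 was at 617, 79.5 and 206 in vehicle and 996, 0.9 and 8.2 in treated tumors, and LTBP1, LTBP2, LTBP3, LTBP4, ITGB5, ITGB6, MMP14 and DCN overlapped as well.

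SMAD and feedback genes leaned lower. Of 17 tested, 14 were negative (51% of all genes were), the median was -0.77, and 4 (23.5%) had separate groups in the lower direction, beside 6.26% of all genes, with 2 (11.8%) at an unadjusted p under 0.05, beside 3.96%. PMEPA1, a TGFβ-induced inhibitor of SMAD signaling, measured 484, 896 and 376 in the vehicle tumors and 145, 282 and 103.1 in the TGFBRi tumors (-1.75 ± 0.62). BAMBI, a decoy receptor, measured 201, 262 and 219.9 in the vehicle tumors and 53.6, 62.2 and 108.8 in the TGFBRi tumors (-1.65 ± 0.79). SMURF1, a ubiquitin ligase for SMADs and receptors, measured 678, 240 and 359.5 in the vehicle tumors and 111, 43.9 and 158 in the TGFBRi tumors (-2.07 ± 0.74). For these 3 inhibitors every treated tumor lay below every vehicle tumor. ID2, a helix-loop-helix inhibitor of lymphocyte differentiation that responds to BMP signals, measured 17213, 6074 and 5464 in the vehicle tumors and 3706, 4912 and 4961 in the TGFBRi tumors (-0.89 ± 0.42), where D4R and C5R lay close to each other. SMAD7, the canonical feedback inhibitor, did not separate, at 248, 895 and 250.2 in the vehicle tumors and 49.7, 422 and 530.2 in the TGFBRi tumors (-0.77 ± 0.85), and SMAD2, TGIF1, ID3 and LDLRAD4 had log2 fold changes of 0.17, -0.31, -0.02 and 0.51. The list median was closer to 0 without C2N, C2R or D2N, at -0.36, -0.40 and -0.38, and was -0.22 with C2N and D2N both left out and -0.30 by edgeR.

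Target genes of TGFβ were mixed. Of 23 tested, 15 were negative with a median of -0.67, which was 0.09 without D3R, and 1 member (4.35%) had separate groups in the lower direction, beside 6.26% of all genes. That member was RUNX1, a SMAD partner in hematopoietic cells, at 978, 550.2 and 602 in the vehicle tumors and 299, 228 and 201 in the TGFBRi tumors (-1.52 ± 0.53, limma adjusted p = 0.663). AXL, a receptor tyrosine kinase of macrophages, measured 1395, 140.3 and 799 in the vehicle tumors and 419, 63.1 and 41.1 in the TGFBRi tumors (-2.37 ± 0.98). C2N was the highest tumor for AXL, and 1 treated tumor lay above the lowest vehicle tumor. TGFBI, NEDD9, ITGAE, JUN and CDKN1A overlapped, with log2 fold changes of -0.33, 0.03, 0.54, 0.48 and -1.05. POSTN, TNC and COL1A1 are also fibroblast products, and their highest or second highest values were in D2N, the library with the largest fibroblast sum. RGCC, TGM2, FN1, GAS6, AHR, CTGF, CYR61, CDKN2B, P2RY12, TMEM119, HPGD and SNAI2 had overlapping groups.

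Mast cell transcripts were lower in TGFBRi tumors in part of the list. Of 20 genes tested, 17 were negative with a median of -1.59, 5 (25%) had separate groups in the lower direction, beside 6.26% of all genes, and the same number had an unadjusted p under 0.05, beside 3.96%. None passed the limma test and 3 of the 20 (HDC, MCPT2 and MCPT1L1, all lower) passed DESeq2, which called 0.472% of its genes lower. HDC, the histidine decarboxylase that makes histamine, measured 163, 584 and 81.4 in the vehicle tumors and 1, 0 and 5.1 in the TGFBRi tumors (DESeq2 adjusted p = 6.02e-06, limma adjusted p = 0.615), so the treated libraries held almost none. MCPT2, a chymase of mucosal mast cells, measured 718, 1311 and 485 in the vehicle tumors and 154, 253 and 188 in the TGFBRi tumors (-1.98 ± 0.56). MCPT1L1, a related protease, measured 1673, 12387 and 1692 in the vehicle tumors and 936, 256 and 454 in the TGFBRi tumors (-2.77 ± 0.79). C2R was the highest tumor for all 3. The tryptase gene TPSAB1 measured 1109, 6856 and 1539 in the vehicle tumors and 1067, 167 and 203 in the TGFBRi tumors (-2.77 ± 0.84). Its neighbor TPSB2 measured 1667, 14089 and 1458 in the vehicle tumors and 1043, 101.5 and 358 in the TGFBRi tumors (-3.27 ± 1.16). D2N came close to the lowest vehicle tumor for TPSAB1, and since proteases of these families are alike in sequence, reads may have been split among them.

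Vehicle C2R led the mast cell list, with a sum of 81064 against 14193 and 28327 in the other vehicle tumors and 21124, 7397 and 8229.8 in the TGFBRi tumors. The list median was -0.96 without C2R, -2.20 without C2N, -2.13 without C5R and -2.33 without C2N and D2N. Other mast cell genes did not separate. CPA3, the mast cell carboxypeptidase, measured 1629.5, 14008 and 398 in the vehicle tumors and 1826, 609 and 569.5 in the TGFBRi tumors (-1.28 ± 1.34), MS4A2, the β chain of the IgE receptor, measured 20.9, 1384 and 53.5 in the vehicle tumors and 26.3, 79.5 and 134 in the TGFBRi tumors (-0.83 ± 1.35), and CMA1 measured 1739.7, 10369 and 1396 in the vehicle tumors and 2148, 308 and 618 in the TGFBRi tumors (-1.98 ± 0.94). KIT, FCER1A, GATA2, HPGDS, TPH1, SLC18A2, MCPT4, MCPT8, MCPT9 and TPSG1 had overlapping groups, and CD63 and IL1RL1 are also expressed by macrophages and lymphoid cells. CD63 and IL1RL1 are counted in the sums of the list, which are therefore no measure of mast cells alone. The promoter of CPA3 is shown because this gene is largely restricted to mast cells and was not separate. It holds 1 AGATAA, the binding letters of GATA factors, printed in capitals. On either strand these letters were in 3 of 17 matched promoters of the list (17.6%), beside 11.6% of all promoters.
CPA3 (RefSeq GRCr8, chr2:104673188-104673487, minus strand): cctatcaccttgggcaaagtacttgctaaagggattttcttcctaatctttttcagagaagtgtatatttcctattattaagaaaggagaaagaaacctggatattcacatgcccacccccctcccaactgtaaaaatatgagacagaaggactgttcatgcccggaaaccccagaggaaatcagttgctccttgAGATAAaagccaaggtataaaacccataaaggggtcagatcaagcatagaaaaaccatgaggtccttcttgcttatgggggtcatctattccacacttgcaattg

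**Figure D3:**
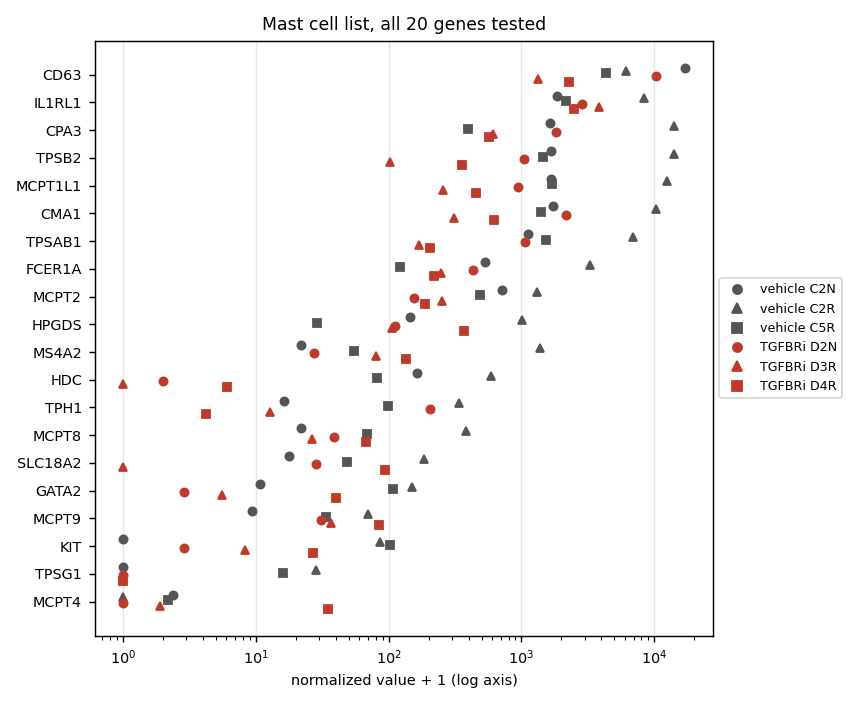
Normalized values + 1 (log axis) of the 20 mast cell genes tested, in order of mean level, each point 1 tumor. Vehicle C2R (grey triangles) is the rightmost point in most rows, and HDC, MCPT2, MCPT1L1, TPSAB1 and TPSB2 are the rows in which no red point reaches a grey one.

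Myeloid transcripts differed strongly between animals of one treatment. The macrophage list of 21 genes summed to 187284, 21899.8 and 26986 in the vehicle tumors and 40325, 12968 and 15819 in the TGFBRi tumors, and the 11 MHC class II genes summed to 1303452, 193829 and 517979 in the vehicle tumors and 480798, 179462 and 154026 in the TGFBRi tumors. C1QA, a complement component made by macrophages, measured 34073, 1716 and 2393 in the vehicle tumors and 3965, 1556 and 1018 in the TGFBRi tumors (-1.49 ± 1.26), C2N being far above every other tumor. CD74, the MHC class II invariant chain, measured 554066, 81632 and 284609.6 in the vehicle tumors and 165895, 80413 and 63522 in the TGFBRi tumors (-1.31 ± 0.74). Of the 21 macrophage genes 19 were negative, with a median of -1.25, but 1 (4.76%) had separate groups, beside 6.26% of all genes in the lower direction, 2 (9.52%) had an unadjusted p under 0.05, beside 3.96%, and the median was -0.48 without C2N and -2.18 without C2R. That gene was GPNMB, a glycoprotein of lipid-laden macrophages, at 135, 277 and 287 in the vehicle tumors and 82.8, 7.3 and 43.7 in the TGFBRi tumors (-2.82 ± 1.06). The MHC class II median of -0.84 was -0.04 without C2N, no member had separate groups, and reads of the RT1 class II genes may have been shared among paralogs. The other macrophage genes named by the rule, APOE, C1QB, C1QC, CD14, CD68, CSF1R and SLAMF9, had log2 fold changes from -1.76 to -0.83 with overlapping groups.

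Vehicle C2N and TGFBRi D2N shared a profile of high chemokine and cytokine transcripts. CCL2, the monocyte attractant, measured 95308, 22242 and 3933 in the vehicle tumors and 108018, 2359 and 1881 in the TGFBRi tumors (-1.37 ± 2.24). CXCL1, a neutrophil attractant, measured 38333, 2714 and 4388 in the vehicle tumors and 51126, 1222 and 1768 in the TGFBRi tumors, and IL1B, the inflammasome cytokine, measured 41267, 2639.7 and 4518 in the vehicle tumors and 23840.1, 3905 and 1688 in the TGFBRi tumors. These 2 tumors were the highest in their group for CCL2, CXCL1, CCL17, CCL7, CXCL2, CCL3, IL1B, IL1A and IL1RN, one of each treatment. The chemokine sum was 277997, 38806 and 22797 in the vehicle tumors and 236973, 15899.5 and 19207 in the TGFBRi tumors, no chemokine gene had separate groups, and the median of -0.42 was 0.66 without C2N and -1.70 without D2N. The dendritic cell median of -1.05 was -0.20 without C2N, -0.33 without D3R, -0.52 without D4R and -0.68 without C5R. IRF8, a factor of dendritic cells and monocytes, measured 1143, 1541 and 2206 in the vehicle tumors and 537, 1172 and 353 in the TGFBRi tumors (-1.37 ± 0.50), and CADM1 was the 1 dendritic member (6.67%, beside 6.26% of all genes) with separate groups, at 112, 129 and 219 in the vehicle tumors and 102.3, 55.8 and 51.3 in the TGFBRi tumors (-1.13 ± 0.89).

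**Figure D4:**
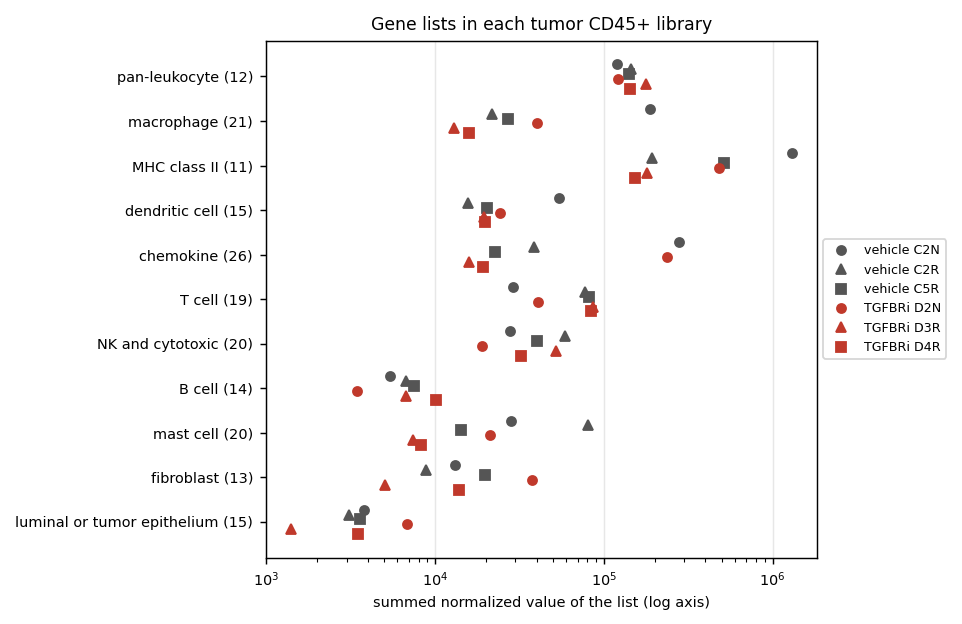
Summed normalized values (log axis) of 11 gene lists, with the number of genes in parentheses, each point 1 tumor; equal shapes do not mark related rats. C2N and D2N (circles) are highest for chemokine genes and lowest for T cell genes, whatever the treatment, and C2R (grey triangle) is highest for mast cell genes.

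Among monocyte genes, 3 of 11 (27.3%) had separate groups in the lower direction, beside 6.26% of all genes. CX3CR1, the fractalkine receptor of patrolling monocytes and tissue macrophages, measured 252, 141 and 101.2 in the vehicle tumors and 29.2, 22.9 and 62.6 in the TGFBRi tumors (-2.11 ± 1.02). ITGAM, which encodes CD11b, measured 439.5, 247 and 372 in the vehicle tumors and 229, 63.1 and 29.7 in the TGFBRi tumors (-2.16 ± 0.82), and ACE measured 226, 102.1 and 76.8 in the vehicle tumors and 0, 30.2 and 2.5 in the TGFBRi tumors (-4.67 ± 1.62, a size that rests in part on the pseudocount). The lysozyme gene LYZ2 did not follow, at 134068, 19734 and 28263 in the vehicle tumors and 76272, 26414 and 23792 in the TGFBRi tumors (-0.21 ± 0.81), and ITGB2, the β2 integrin chain that pairs with CD11b, measured 3135, 2099.6 and 5759.5 in the vehicle tumors and 1604, 2147 and 652 in the TGFBRi tumors (-1.36 ± 0.49). VCAN, which fibroblasts also make, was separate in the higher direction, at 32.1, 17.1 and 25.6 in the vehicle tumors and 628, 79.5 and 47.5 in the TGFBRi tumors (2.42 ± 1.22), and was named after its values were seen. PLAC8, LY86, FN1 and NR4A1 overlapped, and the list median of -0.38 was 0.09 with C2N and D2N left out.

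T cell transcripts varied with the tumor. The 19 genes summed to 29034, 77771 and 82229 in the vehicle tumors and 40537, 86112 and 84309 in the TGFBRi tumors, the low pair being C2N and D2N, and 9 were positive and 10 negative with a median of 0.00. CD3E measured 2508, 8224 and 10989.5 in the vehicle tumors and 2063, 7002 and 6278 in the TGFBRi tumors (-0.44 ± 0.60, 95% interval -1.76 to 0.88). CD4, the coreceptor of helper and regulatory T cells that rat macrophages also carry, was the 1 member (5.26%, beside 6.26% of all genes) with separate groups, at 2168, 2083 and 3689.5 in the vehicle tumors and 860.4, 1249.5 and 623 in the TGFBRi tumors (log2 fold change -1.54 ± 0.43 SE, limma adjusted p = 0.615). CD8B measured 254, 182 and 236 in the vehicle tumors and 223, 663 and 389 in the TGFBRi tumors (0.80 ± 0.61). CD3G, CD3D, LCK, CD2, LAT and LEF1 overlapped between groups.

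FOXP3, the factor of regulatory T cells, measured 222, 1064 and 1456 in the vehicle tumors and 389, 306 and 180.3 in the TGFBRi tumors (-1.33 ± 0.66), and the groups overlapped. CD274, which encodes PD-L1, measured 152, 185 and 67.5 in the vehicle tumors and 104.3, 572 and 595 in the TGFBRi tumors (1.40 ± 0.78), high in D3R and D4R and not in D2N. LAG3, ICOS, IL2RA, HAVCR2, TNFRSF4, TNFRSF9 and TNFRSF18 had log2 fold changes from -1.34 to 0.22, and none of the 15 checkpoint and regulatory T cell genes had separate groups. Of the 20 NK and cytotoxic genes none did either, with 11 positive and 9 negative and a median of 0.07, which was 0.75 without D2N, -0.33 without D3R and -0.28 without C2N. IL2RB, the shared receptor chain for IL-2 and IL-15, measured 7083, 19697 and 17441 in the vehicle tumors and 4695, 9721 and 3763 in the TGFBRi tumors (-1.27 ± 0.44). NKG7, GZMM, CTSW, CST7, CCL5, KLRD1, FASLG and KLRE1 had log2 fold changes from -0.48 to 1.65, each with a 95% interval that included 0.

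B cell genes had a median of 1.20 over 14 genes, 9 positive and 5 negative, with 1 separate in each direction (7.14%), beside 5.89% of all genes higher and 6.26% lower. MS4A1, which encodes CD20, measured 68.4, 35.1 and 0 in the vehicle tumors and 0, 428 and 1606 in the TGFBRi tumors (2.70 ± 2.81), and CD79B measured 60, 66.2 and 17.5 in the vehicle tumors and 74.1, 77.7 and 1858 in the TGFBRi tumors (2.39 ± 1.18). D4R was the highest tumor for both, with D3R next for MS4A1, and the list median was 0.61 without D4R, 0.51 without C2R and 0.52 without C5R. CD22, a B cell lectin, went the other way, at 184, 135 and 389.8 in the vehicle tumors and 72.1, 37.5 and 24.7 in the TGFBRi tumors (-2.36 ± 0.93). XBP1, the factor of secretory cells and plasma cells, measured 4802, 3128 and 4921 in the vehicle tumors and 2358, 2305 and 1109 in the TGFBRi tumors (-1.21 ± 0.41) and was 1 of 8 plasma cell genes (12.5%) to be separate, beside 6.26% of all genes.

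The 26 interferon-stimulated genes had a median of 0.07, with 14 positive and 12 negative. STAT2 was the 1 member (3.85%, beside 6.26% of all genes) with separate groups, at 1410.5, 603 and 750.5 in the vehicle tumors and 305, 552 and 378 in the TGFBRi tumors (-1.11 ± 0.51), with every treated tumor below every vehicle tumor. Of 16 immediate early and heat shock genes 3 (18.8%) were separate, EGR1, DUSP1 and FOSB, all lower, beside 6.26% of all genes. The list had 7 positive and 9 negative members, with a median of -0.35 that was 0.32 without D2N. EGR1, an early response transcription factor, was at 677, 613 and 997 in the vehicle tumors and 149, 254 and 304 in the TGFBRi tumors (-1.72 ± 0.54) and DUSP1, a MAP kinase phosphatase, at 20218, 11101 and 14531 in the vehicle tumors and 4765, 10865 and 8343 in the TGFBRi tumors (-0.97 ± 0.38), both lowest in D2N. Heat shock genes DNAJB1 and HSPH1 were highest in D3R and D4R, DNAJB1 reading 4298, 8597 and 4231 in the vehicle tumors and 3366, 18858 and 13998 in the TGFBRi tumors (0.83 ± 0.58). Transcripts of this list respond to tissue digestion and sorting, whose part in these values was not tested. Of 25 inflammatory cytokine genes 1 (4%) was separate, LIF, at 60, 16.4 and 12.8 in the vehicle tumors and 0, 0 and 5.1 in the TGFBRi tumors, and of 16 chemokine receptor genes 1 (6.25%), CX3CR1, neither share being above the 6.26% of all genes.

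Neutrophil and eosinophil lists were low, at sums of 919 to 4836 and 338 to 1371. Of 15 neutrophil genes 12 were negative, with medians of -1.85 to -0.93 without each library in turn, and none had separate groups. The erythroid gene HBA-A1 was under 10 in every tumor. Of the 15 luminal or tumor epithelial genes, KRT8 measured 211, 797 and 731 in the vehicle tumors and 2246, 52.1 and 531 in the TGFBRi tumors (-0.32 ± 1.35) and EPCAM 177, 254 and 189.7 in the vehicle tumors and 344, 161 and 293 in the TGFBRi tumors (0.31 ± 0.64). The fibroblast sum was 13220.3, 8881 and 19857 in the vehicle tumors and 37675, 5085 and 13816 in the TGFBRi tumors, led by D2N, with COL3A1 at 4089, 2506 and 8354 in the vehicle tumors and 10861, 855 and 3302 in the TGFBRi tumors (-0.49 ± 0.94). The medians of the luminal, basal, fibroblast and endothelial lists were -0.10, -0.65, 0.41 and -0.07, and turned sign without 1 library, to 0.94 without D3R for luminal, 0.32 without D3R for basal, -0.09 without D2N for fibroblast and 0.18 without C5R for endothelial genes. The part of such transcripts in the values above was not tested.

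CD45+ cells of mammary glands without a gross tumor, from the same 6 rats, were set beside the tumor values. Markers of other cell types differed between the TGFBRi and vehicle glands of these 6 rats. Basal epithelial genes summed to 17467, 13462 and 12516 in the vehicle glands and 333634, 40589 and 33703 in the TGFBRi glands, 12 of 12 being positive and 9 separate, with a median of 2.81, or 1.65 without D2N. Fibroblast genes summed to 217213, 441081 and 437336 in the vehicle glands and 163761, 125496 and 164817 in the TGFBRi glands, 13 of 13 being negative and 10 separate. In glands of the tumor-free TGFBRi rats D1N, D1R and D2R the basal sums were 25777, 21757 and 15461. Their fibroblast sums were 349880, 300553 and 184798, and the sums of both lists reached into the vehicle range. Among all genes, 6.47% were separate in the higher and 4.78% in the lower direction. Gland D2N stood furthest apart, with a pan-leukocyte sum of 17378 against 70723 to 89703, so gland values are also given without it, and the part of these transcripts in the gland values was not tested. Differences in effect given without D2N leave out its tumor as well as its gland. In the glands 0 of 12913 genes (0%) were called by limma, with 907 (7.02%) at an unadjusted p under 0.05. The treatment effect was called different between tumor and gland leukocytes for 0 of 11966 genes (0%), with 896 (7.49%) at an unadjusted p under 0.05. No edgeR or DESeq2 test was run on the glands.

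The G2/M list had a gland median of 0.52 (0.66 without D2N), with 28 positive and 17 negative where 55.1% of all genes were positive, and 2 had separate groups in the higher and 0 in the lower direction, beside 6.47% and 4.78% of all genes. Across the list, 4 of 45 genes (8.89%) differed in effect between tissues at an unadjusted p under 0.05, beside 7.49% of all genes. For S phase the gland median was -0.02 (0.21 without D2N), and 5 of 35 genes (14.3%) differed in effect, beside 7.49% of all genes, or 2 without D2N, beside 8.65%. SMC4 measured 390.2, 135 and 108.3 in the vehicle glands and 172, 127 and 247 in the TGFBRi glands (-0.03 ± 0.58), a difference from the tumor effect of 2.10 ± 0.72 (limma adjusted p = 0.541). In glands the vehicle and treated values of SMC4 overlapped widely.

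For SMAD and feedback genes the gland median was 0.39 (0.07 without D2N), with 13 positive and 4 negative, and the effect differed at an unadjusted p under 0.05 for 5 of 17 genes (29.4%), beside 7.49% of all genes. The same count of 5 was found without D2N, where 8.65% of all genes reached that level. With all rats the share was higher still for basal epithelial (50%), fibroblast (38.5%) and TGFβ activation genes (30.8%), so it was not particular to this list. BAMBI measured 306, 285 and 474 in the vehicle glands and 684, 1297 and 653 in the TGFBRi glands (1.27 ± 0.42), higher in treated glands, as basal epithelial genes were, and lower in treated tumors, a difference of -2.92 ± 0.78 (limma adjusted p = 0.465). PMEPA1 measured 998, 937 and 644 in the vehicle glands and 4979, 774 and 1079 in the TGFBRi glands, a difference of -2.68 ± 0.85 (limma adjusted p = 0.531), and its high treated gland value was D2N alone. TGFB1 measured 1532, 698 and 1606 in the vehicle glands and 427, 1079 and 1173 in the TGFBRi glands (-0.56 ± 0.49), the groups overlapping.

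LGALS1 measured 4278, 5608 and 4271 in the vehicle glands and 3989.6, 8633 and 5014 in the TGFBRi glands (0.25 ± 0.37) and ADGRE5 measured 4268, 3614 and 6868 in the vehicle glands and 1896, 4899 and 11522 in the TGFBRi glands (0.01 ± 0.58), both overlapping between groups, with differences from the tumor effect of 1.99 ± 0.64 and -2.14 ± 0.73 (limma adjusted p = 0.531 and 0.533). HDC was low in the glands of either group, at 0, 0 and 57.4 in the vehicle glands and 9.6, 7 and 5.5 in the TGFBRi glands. The mast cell list had a gland median of -0.65 over 17 genes, 0.18 without D2N, so its gland direction turned with 1 library. The macrophage list had a gland median of 0.48 (1.04 without D2N), opposite in sign to the tumors, and the effect differed at an unadjusted p under 0.05 for 2 of 21 genes (9.52%), beside 7.49% of all genes, and for 13 of 21 without D2N, beside 8.65%. The last count also lacks tumor D2N, the treated tumor highest in macrophage genes, without which the tumor median was -1.83.

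**Figure D5:**
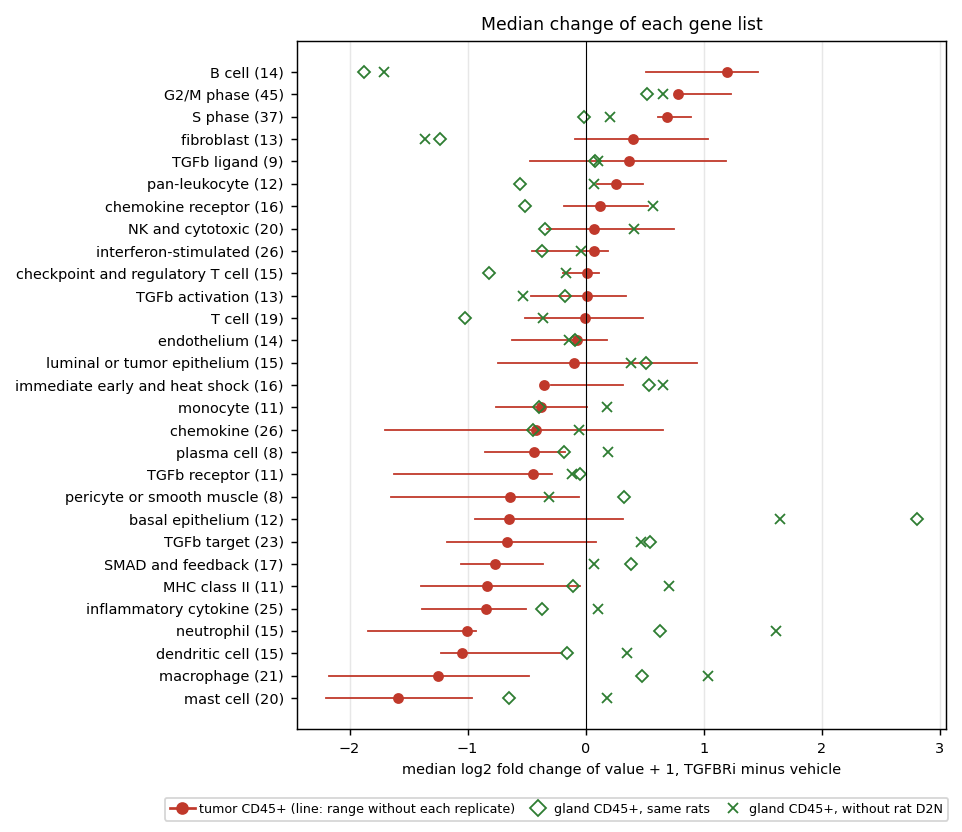
Median log2 fold change, TGFBRi minus vehicle, of each gene list with at least 8 genes tested (number in parentheses): red points are tumor CD45+ cells with a line for the range of medians when each of the 6 tumors is left out, green diamonds the glands of the same rats and green crosses the glands without rat D2N. The S phase and G2/M lines lie right of 0 and the mast cell and macrophage lines left of it, while the T cell and chemokine lines cross it. Other lists also stay on one side, B cell and pan-leukocyte to the right and, among others, neutrophil, inflammatory cytokine and SMAD and feedback to the left.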

How the data were processed

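RNA of CD45+ cells sorted from NMU tumors was made into low-input libraries. According to the submitters' processing notes and the methods, reads were aligned with STAR 2.5.1b to the rat build rn6, counted per gene with HTSeq without strand, and normalized with DESeq2 1.30.1. The deposited files hold signal values, which the authors made as counts divided by size factors, and all 66052 tumor values above 0 were whole reads (100% at a tolerance of 0.001) after division by each library's value of 1 read. Genes whose values summed to at least 10 were tested with limma 3.58.1 (R 4.3.3, statmod 1.5.0) on log2(value + 1), trended prior and robust variances, two-sided, Benjamini-Hochberg adjusted p of 0.05. Effects in tumor and gland were compared by the same test on each rat's difference, tumor minus gland, in log2(value + 1). The recovered reads were also tested with edgeR 4.0.16 and DESeq2 1.42.0. Scripts were tested on simulated data. Tables and figures were made with Python 3.11.15, numpy 2.4.6, pandas 2.3.3 and matplotlib 3.10.9.

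The 33 gene lists held 597 entries, of which 523 matched, 2 by a synonym. Samples and lists were chosen with earlier results of these data known. Genes were named by rule: those called by limma or, failing these, up to 15 per direction that DESeq2 called, with separate groups and 50 or more reads on average; in each list up to 6 of the highest mean and up to 4 of the smallest p; and the mast cell and TGFβ lists in full. Genes named outside it are marked, and 4 genes that the rule names are not reported here. p-values measure the spread between rats. Paralogs and overlapping genes may share reads.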

Additional observations from a re-analysis of the deposited data

Results flagged for a closer look

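For 3 of the genes named in the report, every TGFBRi sample lay on one side of every vehicle sample in tumor leukocytes and on the other side in gland leukocytes of the same rats. None of the differences between tissues passed the limma test. Many named genes were chosen for separate groups or a small p in the tumors. In the glands 6.47% of all genes were separate in the higher and 4.78% in the lower direction. The share of all genes separate in opposite directions was not computed, so these 3 cannot be called more than expected. BAMBI, the decoy receptor of the TGFβ family, measured 201, 262 and 219.9 in the vehicle tumors and 53.6, 62.2 and 108.8 in the TGFBRi tumors, and 306, 285 and 474 in the vehicle glands and 684, 1297 and 653 in the TGFBRi glands, a difference in log2 fold change, tumor minus gland, of -2.92 ± 0.78 (SE, limma adjusted p = 0.465). SDC3, the proteoglycan syndecan-3, measured 1695, 358 and 602 in the vehicle tumors and 45.8, 152 and 128 in the TGFBRi tumors, and 146, 435 and 552 in the vehicle glands and 2295, 744 and 1015 in the TGFBRi glands, a difference of -4.75 ± 1.14 (limma adjusted p = 0.465). In the same glands basal epithelial genes were higher in every treated rat, most in D2N, and fibroblast genes lower, and their part in these values was not tested. RPA2, a subunit of the complex that binds single-stranded DNA, measured 236, 209 and 368 in the vehicle tumors and 678, 519 and 693 in the TGFBRi tumors, and 985, 572 and 532 in the vehicle glands and 387, 385 and 430.2 in the TGFBRi glands, a difference of 1.99 ± 0.64 (limma adjusted p = 0.531). The cause of these differences was not tested. Groups of 3 are too small for a test of single outlying samples.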

How the results depend on the processing

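The count of 0 genes called by limma in tumor leukocytes was 0 under 14 of 16 alternatives, 68 by DESeq2 on recovered reads and 0 to 1 when each rat was left out. The cause of the gap between DESeq2 and the other tests was not tested. In the glands 0 genes were called, 1 with a pseudocount of 5, 2 with a constant prior and no robust variances, 2 with the tumor-free treated rats in the model and 0 to 11 when each rat was left out, the 11 being without D2N. For a different effect in tumor and gland, 0 genes were called under all 9 alternatives. The 30 genes named by rule among the 68 that only DESeq2 called had the same direction in every recomputed log2 fold change, with 450 on the same side of the threshold and 30, those by DESeq2, past it. The rule required separate groups, so leaving out a library or changing the pseudocount could not turn their direction, and its steadiness is no support. Medians of the lists stayed within the replicate spread in 494 recomputed values and moved further in 31. The G2/M median moved further, to 1.00 by edgeR, 0.97 with a mean value of at least 20 and 1.07 without C2N and D2N. With TMM scaling it was 0.84, within the replicate spread. Leaving out C2N and D2N together and median-of-ratios scaling were chosen after seeing the data.

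No paired analysis was possible because treated and vehicle rats were different animals and shared numbers do not link them. Count tests and TMM scaling of the glands, and TMM scaling over tumor and gland, were not run, since the reads of gland D3R, whose value of 1 read is near 1, were not taken as recovered. This was a choice, as 100% of the D3R gland values above 0 were whole reads after division by 1.0046. With 3 rats a group, the median SE of a log2 fold change was 1.07 over all genes, and the size of effect that this number of rats can show is not given here.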
